A study of Mus musculus with 2 samples.

Results

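MHC class II positive natural killer (NK) cells were taken as cell barcodes that carried an NK gene and at least 2 transcripts of the class II genes Cd74, H2-Aa, H2-Ab1 and H2-Eb1. Transcripts were counted as unique molecular identifiers (UMIs). A barcode first had to pass 4 filters, namely at least 1 UMI of Ncr1, under 0.15% of its UMIs from 6 tumour or stroma genes (Col1a1, Col1a2, Sparc, Cald1, Pcolce and Lrp1), fewer than 2 UMIs summed over the cell cycle genes Mki67, Rrm2, Ccnb2 and Top2a, and 0 UMIs of Lyz2, Cd79a and C1qa. Of 20821 barcodes in all, 10899 passed the filters and 624 of these were class II positive. Another 8947 had a class II sum of 0 and served as the comparison, and 1328 had a sum of 1. Since the class II UMIs chose the members, their levels are a description, and the contrast of members with zero barcodes is given without a test.

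The cells came from CT26 colon carcinoma tumours in mice. In both groups the tumour is labelled b2m-/-, after the gene for the light chain of MHC class I. One group is titled IL-15SA and the other IL-15SA+IL-21Fc, called the combination below. In both, cells were sorted as CD45.2+CD3-NKp46+, and those of one treatment were pooled before loading on a microwell chip. Each group therefore had 1 library, with no replicate check, no untreated sample and no label for the number, age or strain of the mice. NKp46 is the protein of Ncr1 and is also carried by group 1 innate lymphoid cells (ILC1), so the sort admits these.

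MHC class II molecules display peptides from taken-up protein to CD4+ T cells. An alpha and a beta chain form the molecule (H2-Aa with H2-Ab1 for I-A, and the beta chain H2-Eb1 for I-E), and Cd74 encodes the invariant chain that guides it through the cell. Dendritic cells, macrophages and B cells are the classical class II positive cells, and expression depends on the coactivator Ciita and on factors bound to the X and Y elements of the promoters. Class II on NK cells is known from activated human NK cells and is less usual in the mouse.

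The promoters of H2-Aa and H2-Eb1 are shown because these genes chose the cells and share the class II promoter elements. Both windows run from 250 bases before to 50 after the annotated start (RefSeq, GRCm38.p6), written 5′ to 3′ on the gene's strand, at chr17:34287774-34288073 on the minus strand for H2-Aa and chr17:34305617-34305916 on the plus strand for H2-Eb1. Capitals mark the matches to CNNGCAAC, part of the X element, and then to CTGATTGG, the Y element.

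H2-Aa: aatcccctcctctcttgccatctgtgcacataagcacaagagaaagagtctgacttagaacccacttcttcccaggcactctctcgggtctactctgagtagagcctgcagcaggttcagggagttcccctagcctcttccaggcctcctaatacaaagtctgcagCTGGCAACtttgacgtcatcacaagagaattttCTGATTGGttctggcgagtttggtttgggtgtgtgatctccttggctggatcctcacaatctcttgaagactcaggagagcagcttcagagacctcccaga

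H2-Eb1: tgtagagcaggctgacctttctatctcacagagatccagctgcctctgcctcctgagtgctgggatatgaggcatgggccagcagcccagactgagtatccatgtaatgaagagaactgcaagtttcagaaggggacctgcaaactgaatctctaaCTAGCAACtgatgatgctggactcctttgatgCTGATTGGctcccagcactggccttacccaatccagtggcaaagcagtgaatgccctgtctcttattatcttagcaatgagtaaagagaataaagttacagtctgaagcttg

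The X match began 84 bases before the start in H2-Aa and 94 in H2-Eb1, and the Y match 51 and 62 bases before it. Searched on both strands, CTGATTGG was in 4.1% of 32851 promoter windows and CNNGCAAC in 11.2%. An X match followed by a Y match on the same strand, with 10 to 60 bases between their first bases, was in 25 windows (0.0761%), which belonged to 24 genes. The class II genes H2-Oa and H2-Eb2 were among these 24 besides H2-Aa and H2-Eb1. The promoter of H2-Ab1 was not analysed here. No such pair was found in the windows of H2-DMa, Lta or Ltb. The letters searched were chosen after the sequences were seen, and a match is not evidence of binding. By GENCODE M21 the genes H2-Ab1 (chr17:34257689-34269419), H2-Aa (chr17:34282744-34287823) and H2-Eb1 (chr17:34305867-34316674) lie side by side in the class II region of chromosome 17. Lta (chr17:35203165-35205351) and Ltb lie further along the same chromosome.

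The IL-15SA library held 8386 barcodes and 30893388 UMIs and the combination library 12435 barcodes and 35336180 UMIs. The cell cycle filter removed the most barcodes, since 3746 and 4425 failed it. The libraries shared 60 cell barcodes, and 6 members had a barcode that was also in the other library. Class II positive barcodes were deeper than zero barcodes, with a median of 3306 against 2592.5 UMIs in the IL-15SA library and 2563 against 2107 in the combination library. The median mitochondrial share of UMIs was 1.28% in members and 1.25% in zero barcodes of the IL-15SA library, and 1.5% and 1.42% in those of the combination.

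In the IL-15SA library 203 of 4176 filtered barcodes were class II positive, 4.86% (95% exact binomial interval 4.23 to 5.56). In the combination library 421 of 6723 were, 6.26% (5.69 to 6.87). All intervals in the text cover counting error only. The share was higher in the combination library, although that library was shallower. It also grew with depth in both libraries: from barcodes under 1500 UMIs to those with 4500 or more, it went from 2.50% to 7.78% for IL-15SA and from 3.38% to 14.3% for the combination. The combination library was the higher at each of the 5 depths, and the intervals of the libraries were apart at the deepest 2.

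**Figure D1:**
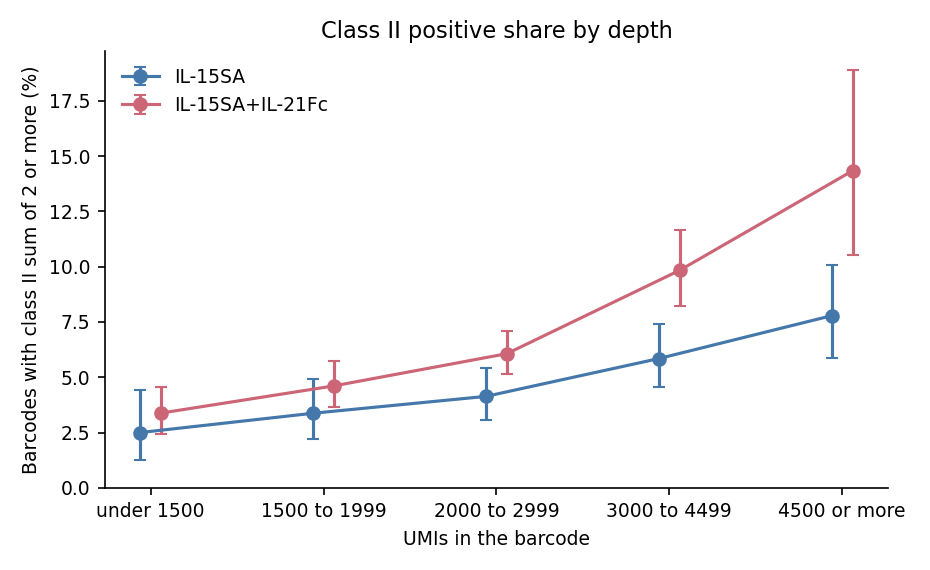
Share of filtered barcodes with at least 2 class II UMIs (vertical axis, percent) in 5 classes of UMIs per barcode (horizontal axis), for the IL-15SA library (blue) and the combination library (red). Points are shares and bars are exact 95% binomial intervals; both lines climb with depth, to 7.78% and 14.3%.

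When each barcode was thinned to 1000 UMIs, 1.15% (0.849 to 1.52) of the IL-15SA library and 2.08% (1.75 to 2.45) of the combination library kept a class II sum of 2 or more. No filtered barcode was too shallow for this. Barcodes rich in tumour or stroma transcripts (at least 0.5% of UMIs from the 6 genes, and no Ncr1) served to show the level that free RNA or the tumour cells themselves can give. There were 34 of these in the IL-15SA library and 203 in the combination library, with a median of 3006.5 and 2549 UMIs. A sum of 2 or more was found in 0 of 34 and in 6 of 203 (2.96%, 1.09 to 6.32), and after thinning in 0 of 34 and in 0.985% (0.120 to 3.51).

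The 4 genes differed in this comparison. For H2-Ab1 the share of barcodes with a UMI was 11.9% of filtered against 2.94% (0.0744 to 15.3) of tumour-rich barcodes in the IL-15SA library. That interval holds the filtered share, so the 34 barcodes cannot tell them apart. In the combination library the H2-Ab1 share was 12.8% against 5.42% (2.74 to 9.49). For Cd74 it was 2.35% against 5.88% in the IL-15SA library and 4.43% against 7.88% in the combination library. After thinning it was 1.05% against 0 of 34, which allows up to 10.3%, and 2.34% against 3.94%. The Cd74 share of filtered barcodes was thus not above that of tumour-rich barcodes beyond counting error, and it is not read here as expression. For H2-Aa the share was 1.96% against 0 of 34, which allows up to 10.3% for this gene and for H2-Eb1. In the combination library it was 2.77% (2.39 to 3.19) against 0.493% (0.0125 to 2.71), and these intervals overlapped. H2-Eb1 was at 1.75% against 0 of 34 in the IL-15SA library, and at 3.18% against 2.46% in the combination library, where it stood within the interval of the tumour-rich barcodes (0.804 to 5.65). The barcodes with Lyz2, Cd79a or C1qa, 10 and 16 in number, held class II at 3294 and 21960.3 CPM (counts of a gene in a class of barcodes, scaled to the same total of UMIs for each class). Their UMIs came from 1 of the 10 and 5 of the 16. The part that free class II RNA has in the difference between libraries was not tested.

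Most members carried few class II UMIs. In the IL-15SA library 135 of 203 (66.5%) had a sum of exactly 2, 56 had 3 to 5, and 12 had 6 or more. In the combination library the numbers were 226 of 421 (53.7%), 158 and 37. The highest sums in a single barcode were 31 and 24 UMIs. The members held 594 class II UMIs in the IL-15SA library and 1389 in the combination library, or 821 and 1150.4 CPM.

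The makeup of the class II UMIs differed with their number. H2-Ab1 gave 54.5% of all class II UMIs in IL-15SA members and 45.1% in combination members, and Cd74 gave 17.3% and 25.1%. These are shares of UMI counts and not levels per length. Just below the threshold, in barcodes with a sum of 1, the UMI was from H2-Ab1 in 74.1% and 62.1%. Just above it, at a sum of 2, H2-Ab1 gave 68.1% and 62.2%. In members with 6 or more UMIs the H2-Ab1 share was 27.3% and 16.8% and the Cd74 share 32.0% and 42.8%. In the Lyz2, Cd79a or C1qa barcodes the Cd74 share was 74.1% and 60.7% and the H2-Ab1 share 10.2% and 10.7%. H2-Eb1 gave 17.97% and 21.1% of the UMIs of members with 6 or more, 8.15% and 13.7% at a sum of 2, and 7.41% and 7.65% in the Lyz2, Cd79a or C1qa barcodes. The IL-15SA values for these barcodes come from 1 barcode, and all of these UMIs are those the rule used.

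**Figure D2:**
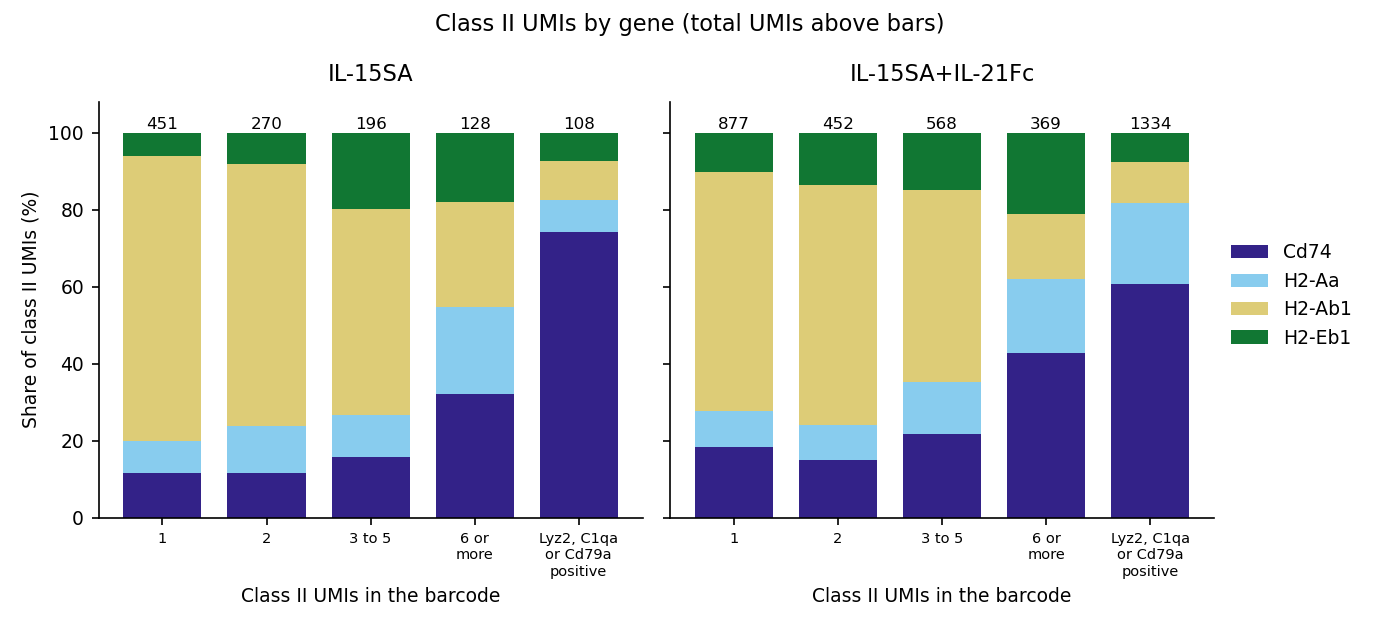
Share of class II UMIs (vertical axis, percent) from Cd74, H2-Aa, H2-Ab1 and H2-Eb1 (colours) in barcodes grouped by their class II sum, and in barcodes with Lyz2, C1qa or Cd79a UMIs. The left panel is the IL-15SA library and the right panel the combination library, with the number of class II UMIs above each bar; the H2-Ab1 part shrinks from 74.1% to 27.3% and from 62.1% to 16.8% between a sum of 1 and of 6 or more.

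Members also differed in how many class II genes they showed. H2-Ab1 alone accounted for 100 of 203 members (49.3%) of the IL-15SA library and 162 of 421 (38.5%) of the combination library. At least 2 of the 4 genes were found in 74 (36.5%) and 198 (47.0%). All 4 genes were found together in 5 and 6 members. The pair H2-Ab1 and H2-Eb1 was found in 33 members (16.3%) and 68 (16.2%), and the alpha and beta chains of I-A, H2-Aa and H2-Ab1, in 21 (10.3%) and 60 (14.3%).

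The NK label was checked against the defining genes. Klrb1c, which encodes NK1.1, was at 184 CPM in members and 206 in zero barcodes of the IL-15SA library, and at 227 and 262 in the combination library. Tbx21, the gene of the transcription factor T-bet, was at 207 and 220 CPM, and at 234 and 256 CPM. Eomes, the factor that separates NK cells from ILC1, was at 115 and 117 CPM in the IL-15SA library. In the combination library it was at 85.3 CPM in members and 124 CPM in zero barcodes, and their ratio was 0.688 (95% interval 0.558 to 0.840). Members thus held all of these NK genes, and the Eomes level was lower in members of the combination library.

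Lists of genes of other class II positive cells were at similar summed levels in members and zero barcodes. Only 1 gene of each dendritic and B cell list, and 2 of the macrophage list, reached 20 CPM. With members weighted to a common depth, Cst3, Tmem123, Tcf4 and Ighm alone were at 265, 177, 41.2 and 85.4 CPM in the IL-15SA library. The macrophage, mature dendritic, plasmacytoid and B cell sums thus rest mostly on these genes and cannot show how many such cells are present. Many defining genes of the lists were at 0 in members. The filters had already left out barcodes with Lyz2, Cd79a or C1qa, so some of these zeros can follow from that choice. Csf1r, C1qb, C1qc, Adgre1, Clec9a, Ms4a1, Pax5 and Igkc were also at 0 in zero barcodes of the combination library. Their absence therefore does not set members apart. The dendritic cell list (10 genes, among them Flt3 and Xcr1) summed to 37.3 CPM in members and 37.6 in zero barcodes of the IL-15SA library, and to 38.1 and 47.3 CPM in the combination library, with Flt3, Xcr1, Clec9a and 4 more genes of the list at 0 UMIs in the members of both libraries. The macrophage list (16 genes) summed to 290 and 292 CPM, and to 353 and 325 CPM, and its genes Csf1r, C1qb, C1qc and Adgre1 were at 0 in the members of both libraries. The macrophage list had a UMI in 57.1% and 53.4% of members, and in 48.8% and 45.9% of zero barcodes, before thinning. The list of mature dendritic cells (6 genes) summed to 185 and 173 CPM, and to 200 and 181 CPM, and that of plasmacytoid dendritic cells (6 genes) to 47.0 and 45.8 CPM, and to 67.1 and 57.7 CPM. The B cell list (11 genes) summed to 81.5 and 71.1 CPM, and to 118 and 109 CPM, with Ms4a1, Pax5 and Igkc at 0. Neutrophil genes gave 0 UMIs in members of both libraries. A stricter list of 21 genes of antigen-presenting cells had a UMI in 8.87% of thinned IL-15SA members and 8.72% of thinned zero barcodes, and in 13.8% and 12.7% in the combination library. Among members with 6 or more class II UMIs, 5 of 12 and 11 of 37 had a UMI of that list. These strongest members held at least 25 and 21 UMIs of the NK core list, with medians of 66 and 56.

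The T cell list summed to 1668 CPM in members and 1584 in zero barcodes of the IL-15SA library, and to 1902 and 1711 in the combination library. Cd3e, a subunit of the T cell receptor complex, had 1 UMI in IL-15SA members and 0 in combination members. Cd3d, another subunit, was at 47.0 against 28.5 CPM and at 51.3 against 34.1 CPM. The part of cells other than NK cells in the results below was not tested.

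The question of the comparison with zero barcodes is what else distinguished class II positive cells that passed the same filters. Class II positive barcodes had more transcript of the lymphotoxin gene Lta, of Csf2, Xcl1, Cd7 and Emb, and less of Gzma, Ccl5 and Klrg1, in both libraries. Genes at 20 CPM or more in either class were counted, 5520 in the IL-15SA library and 5475 in the combination library, and 1 CPM was added to both values for counts of genes past a fold. In the IL-15SA library 59 genes (1.07%) were 2-fold or more higher in members and 27 (0.489%) lower by that fold. In the combination library 20 (0.365%) were higher and 8 (0.146%) lower. At 1.5-fold the counts were 350 higher (6.34%) and 155 lower (2.81%) for IL-15SA, and 160 higher (2.92%) and 75 lower (1.37%) for the combination. Of 5173 genes counted in both libraries, 5 passed 2-fold higher in both (Adgrg5, Tcrg-C1, Cd83, Ckb and Lta) and 0 passed 2-fold lower in both, while 41 passed 1.5-fold higher and 7 passed 1.5-fold lower in both. The counts include genes of few UMIs, which in the IL-15SA library rest on 203 barcodes.

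**Figure D3:**
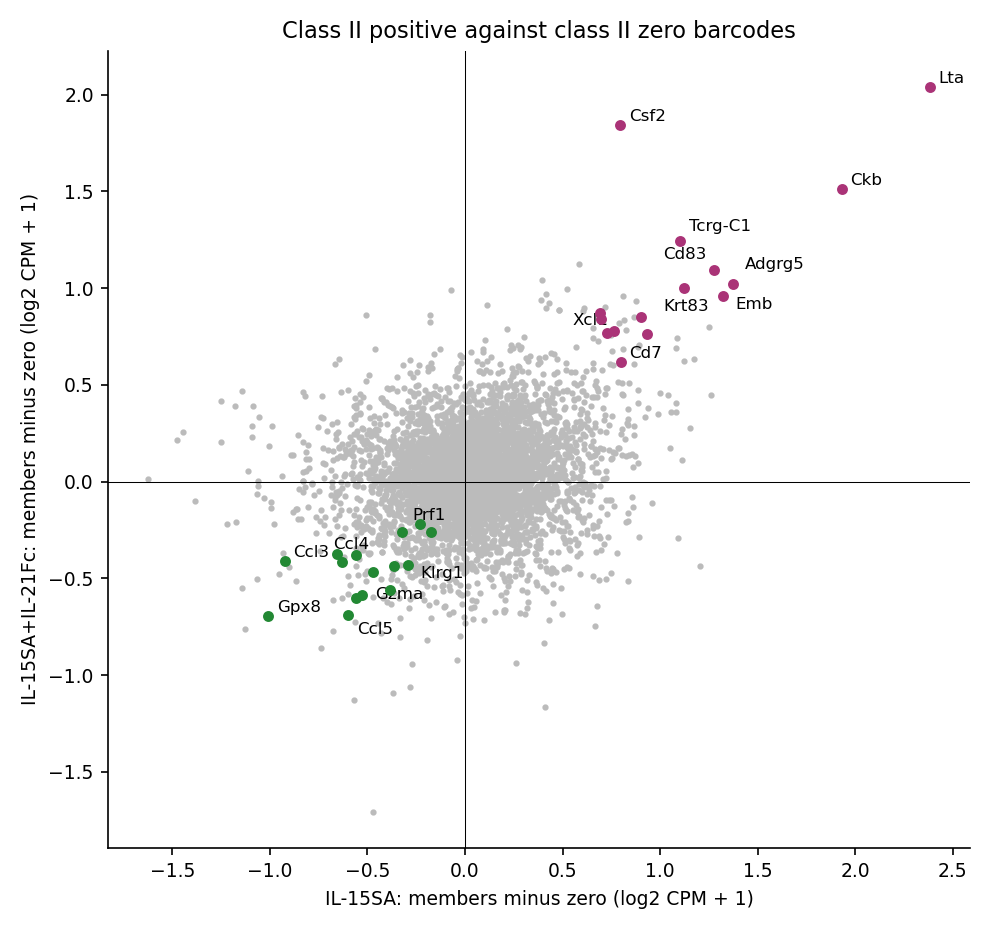
Difference between class II positive and zero barcodes for each gene (log2 of CPM plus 1) in the IL-15SA library (horizontal axis) and in the combination library (vertical axis). Grey points are the 5173 genes counted in both libraries, purple points the 15 named higher genes and green points the 15 named lower genes; Lta lies farthest to the upper right.

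Lta, which encodes the cytokine lymphotoxin alpha, was at 85.7 CPM in members and 15.6 in zero barcodes of the IL-15SA library, or 5.49-fold (4.03 to 7.40). In the combination library it was at 104 and 24.4 CPM, or 4.24-fold (3.42 to 5.24). A single barcode held 21 of the 62 Lta UMIs of IL-15SA members and another 28 of the 125 of combination members, and without these the ratios were 3.65 and 3.30. With a class II sum of 3 or more the log2 difference of Lta was 2.64 in place of 2.39 for IL-15SA, but 1.37 in place of 2.04 for the combination. After thinning, 3.94% of IL-15SA members and 1.56% of zero barcodes had an Lta UMI, and 5.70% and 1.64% in the combination library. The partner gene Ltb, for lymphotoxin beta, was at 865 and 526 CPM (1.64-fold, 1.51 to 1.79) and at 1205 and 881 CPM (1.37-fold, 1.29 to 1.44).

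Other cytokine genes were higher in members as well. Csf2, which encodes GM-CSF, was at 122 against 69.6 CPM in the IL-15SA library (1.75-fold, 1.38 to 2.18) and at 242 against 66.7 CPM in the combination library (3.63-fold, 3.16 to 4.15). One combination barcode held 66 of 292 Csf2 UMIs, and the ratio without it was 2.81. Xcl1, a chemokine that draws XCR1-positive dendritic cells, was at 1466 against 864 CPM (1.70-fold, 1.59 to 1.81) and at 2282 against 1331 CPM (1.71-fold, 1.65 to 1.78). With all barcodes the Xcl1 ratio was thus close to the same in both libraries at different levels. A single IL-15SA barcode held 121 of 1061 Xcl1 UMIs, and a combination barcode 112 of 2755. Without these the ratios were 1.52 and 1.65.

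Among surface and metabolic genes, Emb, a membrane glycoprotein of the immunoglobulin superfamily, was at 319 against 127 CPM in the IL-15SA library (2.51-fold, 2.17 to 2.89) and at 311 against 160 CPM in the combination library (1.95-fold, 1.74 to 2.18). Cd7, a receptor of the same superfamily on NK and T cells, was at 873 against 501 CPM and at 1440.3 against 937 CPM. Ckb, the brain form of creatine kinase, was at 30.4 against 7.23 CPM (4.21-fold, 2.49 to 6.84) and at 31.5 against 10.4 CPM (3.03-fold, 2.05 to 4.37). Cd83, a surface protein of activated antigen-presenting cells that stabilises class II there, was at 22.1 against 8.56 CPM and at 34.8 against 15.8 CPM. Its ratio of 2.58 in the IL-15SA library was 1.78 without the barcode that held 5 of its 16 UMIs. The adhesion receptor gene Adgrg5 had ratios of 2.71 and 2.09, the keratin gene Krt83 2.22 and 2.02, Ramp1, a coreceptor for the neuropeptide CGRP, 1.62 and 1.79, the hexokinase gene Hk3 1.93 and 1.71, the protease inhibitor gene Serpina3g 1.67 and 1.71, and the phosphatase gene Acpp 1.91 and 1.82.

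The gamma T cell receptor constant genes Tcrg-C1 and Tcrg-C4 had ratios of 2.21 and 1.62 in the IL-15SA library and 2.52 and 1.83 in the combination library. Without its top barcode Tcrg-C1 had a ratio of 1.64 in the IL-15SA library. The delta constant gene Trdc was lower in members, with ratios of 0.766 and 0.678. The gamma constant genes are close copies of each other, so the split of UMIs between them is uncertain, as it also is for the Klra and Gzmd to Gzmg families below.

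The genes lower in members included cytotoxic effectors and chemokines. Gzma, which encodes a granule protease, was at 13784 CPM in members and 19852 in zero barcodes of the IL-15SA library, which was 1.44-fold lower (1.41 to 1.47). In the combination library it was at 11580.2 and 17373 CPM, which is 0.667 of the zero level (0.655 to 0.678). Ccl5, a chemokine for T cells, was at 2923 and 4421 CPM (1.51-fold lower, 1.45 to 1.58), and at 5891 and 9496 CPM (1.61-fold lower, 1.57 to 1.65). Its relatives Ccl4 and Ccl3 had ratios of 0.645 and 0.526 in the IL-15SA library, and 0.751 and 0.753 in the combination library. Part of these differences went with depth. When zero barcodes were weighted to the depth of the members, the log2 difference of Ccl5 was -0.26 in place of -0.60 for IL-15SA and -0.32 in place of -0.69 for the combination. For Ccl4 it was -0.43 in place of -0.63 and -0.23 in place of -0.41, and for Ccl3 -0.60 in place of -0.92 and -0.17 in place of -0.41. For Xcl1 the weighted differences were 0.94 and 0.99, above the unweighted 0.76 and 0.78.

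Klrg1, an inhibitory receptor of mature NK cells, was at 1186 and 1454 CPM (1.23-fold lower, 1.14 to 1.32) in the IL-15SA library and at 1071 and 1445 CPM (1.35-fold lower, 1.28 to 1.43) in the combination library. Perforin (Prf1) had ratios of 0.800 and 0.835, Gzmb 0.886 and 0.834, and the granule gene Nkg7 0.852 and 0.861. Gpx8, of the glutathione peroxidase family, had ratios of 0.495 and 0.615, and the granzyme inhibitor family gene Serpinb9b 0.679 and 0.659. Klra3 and the pseudogene Klra13-ps, of the Ly49 receptor family, had ratios of 0.719 and 0.635 in the IL-15SA library and 0.723 and 0.772 in the combination library. Emp3, a membrane protein gene, had ratios of 0.778 and 0.738 and P2ry14, a receptor for UDP-sugars, 0.678 and 0.769.

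Gene lists gave the same picture in part, but they hold some of the genes named above. Emb, Cd7 and Xcl1 are on the immature NK list and Ckb on the ILC1 list. Gzma, Prf1 and Nkg7 are on the NK core list. The lists are therefore not separate support. Over all genes counted, 58.3% and 57.1% were higher in members, with a median log2 difference of 0.05 and 0.03. Of the list for immature NK cells 5 of 6 counted genes were higher in the IL-15SA library and 6 of 7 in the combination library, with medians of 0.74 and 0.62. These were Emb, Cd7, Xcl1, Ltb and Cd27 in both and Kit in the combination library, whereas Thy1 had ratios of 0.900 and 0.890. Of the list for ILC1 and tissue residency 11 of 12 counted genes were higher in each library, with medians of 0.51 and 0.43. Rgs1, which gave most UMIs of the list, had ratios of 1.00 (0.974 to 1.03) and 1.00 (0.978 to 1.02), and the summed level of the list was 1.04 times that of zero barcodes in both libraries. Il7r, the IL-7 receptor chain, was at 27.6 against 11.0 CPM (2.51-fold, 1.48 to 4.05) and at 23.2 against 12.9 CPM (1.80-fold, 1.16 to 2.69). Cxcr6, a chemokine receptor of resident cells, was at 53.9 against 40.8 CPM (1.32-fold, 0.926 to 1.84) and at 98.6 against 47.3 CPM (2.08-fold, 1.70 to 2.54). The residency gene Itga1, whose protein CD49a marks ILC1, was at 24.9 against 35.2 CPM and at 30.6 against 31.1 CPM.

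Of the NK core list 12 of 15 counted genes were lower in the IL-15SA library and 13 of 15 in the combination library, against 41.7% and 42.9% of all genes, with medians of -0.16 and -0.21. The cytotoxic list had medians of -0.17 and -0.22. For the mature NK list the median was 0.04 for IL-15SA and -0.43 for the combination. Genes of cytokines and chemokines had medians of 0.59 and 0.18, while their summed level was lower in members, with ratios of 0.838 and 0.813, since Ccl5 and Ccl4 make up much of the sum. The type I interferon list had medians of -0.07 and -0.02, the interferon gamma list 0.06 and 0.10, and the MHC class I list 0.06 and 0.09, all near the median of all genes.

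**Figure D4:**
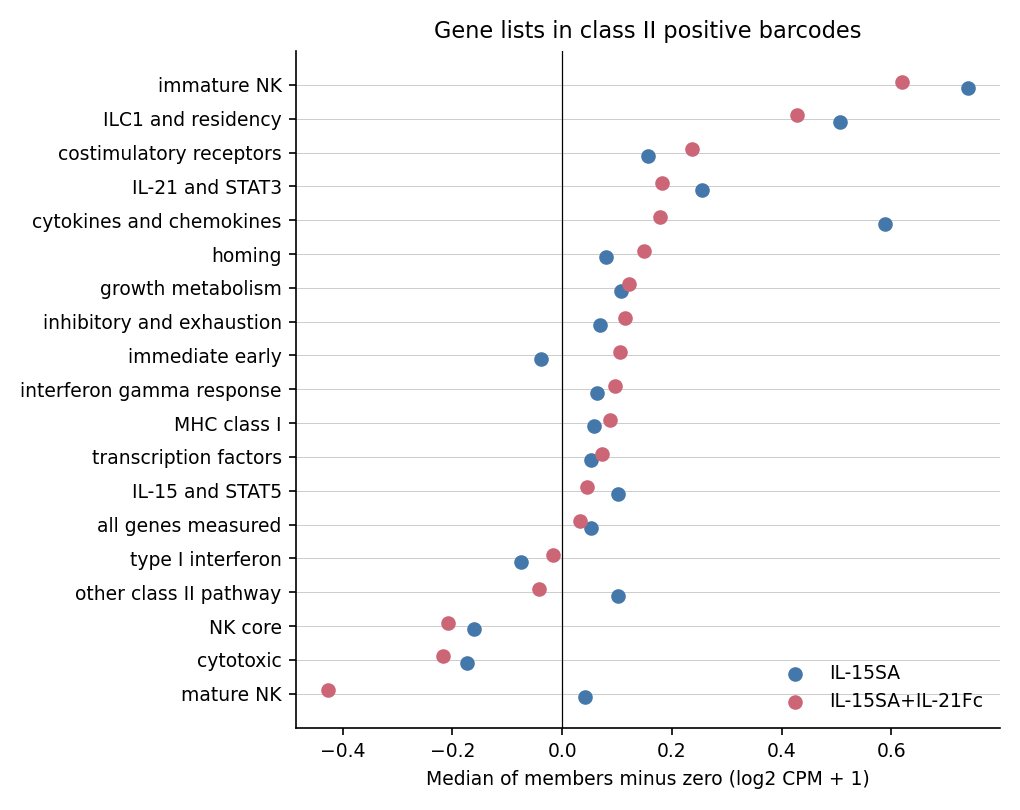
Median difference between class II positive and zero barcodes (horizontal axis, log2 of CPM plus 1) over the counted genes of each list (rows), in the IL-15SA library (blue) and the combination library (red). The immature NK and the ILC1 and residency lists lie to the right, at 0.43 to 0.74, and the NK core and cytotoxic lists to the left, at -0.16 to -0.22.

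The other genes of the class II pathway were mostly at low counts. Of the 22 on the list 8 were counted in each library. Of these 5 were higher in the IL-15SA library and 3 in the combination library, where 58.3% and 57.1% of all counted genes were higher. H2-DMa, a chain of the peptide editor H2-DM, was at 65.0 against 44.0 CPM (1.48-fold, 1.07 to 1.99) and at 83.7 against 60.6 CPM (1.38-fold, 1.11 to 1.70). H2-DMb1 and H2-DMb2, which encode its partner chain, were at 0 UMIs in members of both libraries. H2-Oa, a chain of the H2-DM inhibitor, had 12 UMIs in IL-15SA members, a ratio of 3.11 (1.52 to 5.88), and 17 in combination members, a ratio of 1.38 (0.777 to 2.29). Ciita, the class II coactivator, had 0 UMIs in members of both libraries, and 5 and 17 UMIs in zero barcodes. At this depth its level in members could not be told from that of zero barcodes, since the upper bounds of the ratios were 15.9 and 2.55. H2-Ea-ps, an annotated polymorphic pseudogene of the class II region, had 5 and 8 UMIs in members. The far more numerous zero barcodes had 1 and 7 UMIs, or 0.095 and 0.551 CPM. Without the top barcode, members were at 4.17 and 4.98 CPM, with ratios of 43.9 and 9.03. These ratios rest on few UMIs, and the first on a single UMI in zero barcodes.

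Levels of several genes went with the class II sum. Gzma was at 19852, 18439, 14802, 12813 and 7684 CPM in IL-15SA barcodes with a sum of 0, 1, 2, 3 to 5 and 6 or more, and at 17373, 15283, 13389, 10533 and 5541 CPM in the combination library. Emb went the other way, from 127 to 162, 268, 383 and 554 CPM, and from 160 to 240, 253, 359 and 449 CPM. Xcl1 reached 2325 and 4698 CPM at 6 or more, where Cd7 was at 1417 and 2738 CPM. Barcodes with a sum of 1 thus lay between zero barcodes and members for these genes. Klrg1 did not keep this order in the IL-15SA library, where the 12 barcodes with 6 or more UMIs were at 1572 CPM (1228 to 1983) after 1010 at 3 to 5, whereas in the combination library it was lowest there, at 531 CPM. Lta was highest at a sum of 2 in the combination library, at 139 CPM. Ncr1 stayed between 1484 and 1862 CPM in all 10 groups, but the filters required a UMI of it in every barcode.

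**Figure D5:**
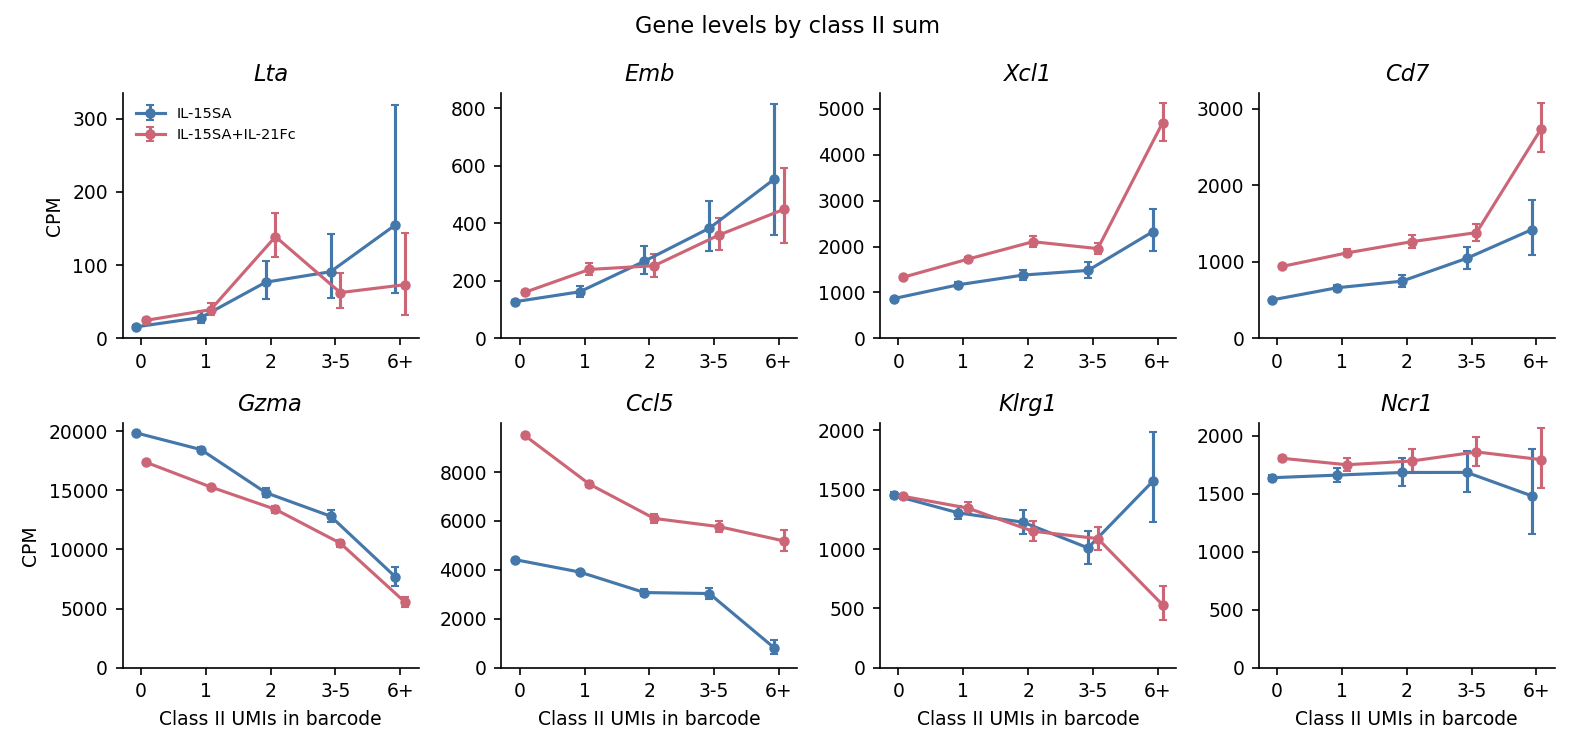
Level of 8 genes (vertical axes, CPM, from 0) in barcodes grouped by their number of class II UMIs (horizontal axes), in the IL-15SA library (blue) and the combination library (red). Bars are exact 95% Poisson intervals. Emb, Xcl1 and Cd7 are highest and Gzma and Ccl5 lowest at 6 or more UMIs. Ncr1, which the filters required in every barcode, stays level.

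Members with at least 2 class II genes stood further from zero barcodes than members with H2-Ab1 alone for Gzma, Klrg1 and Emb. Gzma was at 10783 CPM in the former and 15700.0 in the latter in the IL-15SA library, and at 9837 and 14095 in the combination library. Klrg1 was at 734 and 1390.5 CPM, and at 932 and 1323 CPM, so that members with H2-Ab1 alone were near the 1454 and 1445 CPM of zero barcodes. Emb was at 423 and 261 CPM, and at 384 and 231 CPM. Lta was at 169 (123 to 226) and 37.4 CPM (19.9 to 63.9) in the IL-15SA library, and at 96.7 (73.3 to 125) and 82.0 CPM (58.1 to 113) in the combination library, where the intervals overlapped. Il7r had 22 UMIs in combination members with at least 2 class II genes and 0 in those with H2-Ab1 alone.

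Barcodes that failed the cell cycle filter alone were not used to choose the members and give the same measures in other cells of the same libraries. Of 3366 such barcodes in the IL-15SA library 218 (6.48%) had a class II sum of 2 or more, and of 3577 in the combination library 363 (10.1%). The median depth of all these cycling barcodes was 4178.5 and 3410 UMIs. That of the class II positive ones was higher, at 5519.5 and 4264 UMIs, and the ratios below are not weighted for depth. All 15 named higher genes were higher and all 15 named lower genes lower in the class II positive cycling barcodes of each library, where 56.1% and 53.6% of all counted genes were higher and 43.9% and 46.4% lower. The interval lay clear of 1 for 13 and 15 of the higher genes and for 13 and 14 of the lower genes. The share of all counted genes with such an interval in cycling barcodes is not given here, so these counts have no background. Emb had ratios of 2.48 (2.20 to 2.80) and 2.27 (2.05 to 2.51), Xcl1 1.79 and 1.76, and Krt83 3.71 and 2.53. Gzma had ratios of 0.709 and 0.685, and Klrg1 0.683 and 0.679. Some genes differed in size from the members: Lta had a ratio of 1.19 (0.767 to 1.78) for IL-15SA but 4.46 (3.49 to 5.69) for the combination. Ckb had 1.63 (0.704 to 3.33) for IL-15SA, against 4.21 in members, and Csf2 had 1.44 (1.19 to 1.74) for the combination, against 3.63 in members. As these cells share libraries with the members, they are not replicates of a treatment.

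The last comparison asks how class II positive cells differed between the treatments. Of 5689 genes counted among members, 119 (2.09%) were higher in the combination library by 2-fold or more and 103 (1.81%) were lower by that fold. At 1.5-fold 446 (7.84%) were higher and 468 (8.23%) lower. Among zero barcodes, which are more numerous, 7 of 5299 (0.132%) were 2-fold higher and 8 (0.151%) lower, and 68 (1.28%) and 26 (0.491%) passed 1.5-fold. Whether members and zero barcodes differ in their response was not tested, and counts of few UMIs widen the spread among members.

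Class II positive barcodes of the combination library had more Ccl5, Ccl3 and interferon-response transcript and less Gzmf and Gzmd. Markers of other cells were higher there as well, in members and in zero barcodes. The summed ratio between members of the libraries was 1.52 (1.18 to 1.97) for the tumour or stroma list, beside 1.85 among zero barcodes. It was 1.44 (1.06 to 1.99) for the B cell list, beside 1.53, and 1.42 (1.07 to 1.89) for the strict list of antigen-presenting cells, beside 1.43. For the macrophage list it was 1.22 (1.03 to 1.44), beside 1.11. The B cell and strict lists share their only gene at 20 CPM or more, Ighm. The part of such other cells in the differences was not tested. Ccl5 was at 2923 CPM in IL-15SA members and 5891 in combination members, 2.02-fold higher (1.92 to 2.12), beside 2.15-fold among zero barcodes. Ccl3 had a ratio of 2.13 (1.68 to 2.71), beside 1.49. Part of these differences went with depth, as the combination library was shallower. When members of both libraries were weighted to a common depth, the log2 difference of Ccl5 was 0.61 in place of 1.01. For Ccl3 it was 0.75 in place of 1.08. Ctsl, a lysosomal protease that can process the invariant chain, was at 20.7 and 67.1 CPM, 3.24-fold higher (1.85 to 6.05), beside 1.55-fold. Cxcr4, a receptor for CXCL12, was at 13.8 and 48.0 CPM, beside 13.4 and 24.9 CPM in zero barcodes. Osgin1, a gene of the oxidative stress response, was at 109 and 253 CPM, beside 144 and 244 CPM. The type I interferon list was higher for 21 of 24 counted genes, where 46.9% of all genes were higher, with a median log2 difference of 0.51. In zero barcodes it was higher for 23 of 23, against 47.7% of all genes, with a median of 0.41.

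Gzmf was at 87.1 CPM in IL-15SA members and 15.7 in combination members, which was 5.53-fold lower (3.27 to 9.79), beside 2.26-fold lower in zero barcodes. One IL-15SA barcode held 25 of the 63 Gzmf UMIs. Gzmd was at 184 and 87.0 CPM, 2.11-fold lower (1.62 to 2.76), beside 2.05-fold. With members weighted to a common depth the log2 difference was -2.10 in place of -2.40 for Gzmf. For Gzmd it was -0.71 in place of -1.07. Gzmg, a relative of Gzmf and Gzmd, went the other way in members, with 1 UMI in IL-15SA members and 19 in combination members. In zero barcodes Gzmg was lower in the combination library, as Gzmf and Gzmd were. The list of growth metabolism was lower for 14 of 16 counted genes, where 53.1% of all genes were lower, with a median of -0.33. In zero barcodes it was lower for 15 of 16, against 52.3% of all genes, with a median of -0.31. Of the other genes by the naming rule, Pdzd8, Sft2d1, Nmnat2, Fn1 and Fam46a were higher with 7 or fewer UMIs in IL-15SA members, and Smg5, Gmds, Pla2g15, Klhl18, Avil, Basp1, Srsf10 and Usp38 were lower.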

How the data were processed

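The deposited values are raw UMI counts per gene and cell barcode, already reduced to called barcodes by the authors, from GEXSCOPE microwell libraries per the labels' protocols. The submitters' processing notes list the build mm10 and, with no stated role, Scanpy, Seurat version 4, featureCounts and cutadapt. Aligner, annotation, strand setting and cell calling: not given in the sources used here. Of 53715 gene IDs 53620 are in GENCODE M21, and 118 symbols with several IDs were summed. Groups follow the sample titles, while the series title names IL-21 instead.

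UMIs were summed over each class and library and given as CPM, with exact Poisson intervals; ratios carry exact conditional binomial and shares exact binomial (Clopper-Pearson) intervals, at 95%. Ratios have nothing added. With 1 library a group no test was made. The code was tested on simulated data. Python 3.11.15, numpy 2.4.6, scipy 1.17.1, pandas 2.3.3, scanpy 1.11.5 and matplotlib 3.10.9 were used. Thinning drew 1000 UMIs per barcode once, with a fixed seed.

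For members against zero barcodes, named genes were at 20 CPM or more in members or zero barcodes of both libraries, with the same direction in both, ranked by the nearer bound of the ratio's interval in the weaker library (15 each way). Between libraries, they were at 20 CPM or more in members of 1 library, ranked by the nearer bound (10 each way). Up to 4 of each of 32 lists were also named. Rule genes, tumour or stroma, mitochondrial, ribosomal protein, haemoglobin and model genes were left out. The members, lists and rules were chosen with earlier results of these data known. Scrublet's automatic threshold marked 2 and 0 barcodes, too few to have worked, so doublets were kept, and leaving out the barcodes above the 95th percentile of the score (353 and 508, fewer than 5% because scores are tied) was an alternative. Of members 1.48% and 2.61% lay above it, and of zero barcodes 2.30% and 2.12%.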

Additional observations from a re-analysis of the deposited data

Results flagged for a closer look

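For 3 gene lists the median difference between class II positive and zero barcodes had opposite signs in the libraries, and the difference between the libraries was not tested. For the mature NK list it was 0.042 in the IL-15SA library (5 genes counted) and -0.427 in the combination library (7 genes counted, with Zeb2 and Cma1 added), where Cma1 was at 14.1 CPM in members and 37.8 in zero barcodes. For the other class II pathway genes it was 0.101 and -0.0431, and the summed level was 1.05 and 1.12 times that of zero barcodes. For the immediate early list it was -0.0382 and 0.105, and the summed level was 1.06 and 1.08 times that of zero barcodes.

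Class II UMIs were also found in cells that the members' rule leaves out. Of cycling barcodes 6.48% in the IL-15SA library and 10.1% in the combination library had at least 2 class II UMIs, against 0 of 34 and 2.96% of the tumour-rich barcodes. The cycling barcodes were deeper, with medians of 4178.5 and 3410 UMIs against 3006.5 and 2549, and were not thinned. The 0 of 34 allows up to 10.3%, so the IL-15SA shares cannot be told apart.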

How the results depend on the processing

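The named genes kept their direction under every alternative run, in 600 of 600 values for members against zero barcodes and 200 of 200 between libraries, of which 99 and 7 moved beyond the interval of the reported ratio. These genes were chosen for clear differences in the same barcodes, so the count is not a separate check. Adding 5 CPM or dropping the CPM minimum cannot change a direction, and the quality filter removed 0 members. The shares in the IL-15SA and combination libraries were 1.63% and 2.90% with a class II sum of 3 or more, 1.77% and 2.95% with at least 2 class II genes (chosen after seeing the data), 1.15% and 2.08% after thinning, and 7.04% and 10.6% after thinning with a sum of 1 or more. The combination share was the higher in each. Counts of genes past 2-fold, in the order higher and lower in the IL-15SA library, higher and lower in the combination library, and higher and lower between libraries, were 317, 240, 90, 44, 455 and 404 with a sum of 3 or more. They were 326, 192, 99, 55, 416 and 405 with at least 2 class II genes, and 109, 62, 47, 24, 231 and 196 in barcodes free of other antigen-presenting cell markers. Without the CPM minimum they were 1079, 1167, 540, 674, 1754 and 1689, and with 5 CPM added 27, 8, 5, 2, 59 and 50. With zero barcodes weighted to the members' depth 35 genes were higher in the combination library. These settings change the number of barcodes or the genes counted. Doublet score, quality filter, shared barcodes (chosen after seeing the data) and median of ratios scaling moved no share or count by over 1.5 times. No paired analysis was possible because each treatment has a single library without a replicate number. Depth limits genes under 20 CPM in members, such as Ciita.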

Other observations

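Receptor genes also differed between class II positive and zero barcodes. Cd226, which encodes the activating receptor DNAM-1, was at 113 against 49.6 CPM in the IL-15SA library, a ratio of 2.28 (1.79 to 2.89), and in the combination library at 91.1 against 58.3 CPM, a ratio of 1.56 (1.27 to 1.91). Cd160, a receptor for the ligand HVEM, was at 138 against 98.5 CPM (1.40-fold, 1.13 to 1.72) and at 272 against 146 CPM (1.86-fold, 1.65 to 2.09). Tigit, an inhibitory receptor that shares ligands with DNAM-1, was at 13.8 against 23.7 CPM, a ratio of 0.584 (0.276 to 1.09), and at 13.2 against 24.9 CPM, a ratio of 0.532 (0.301 to 0.878).

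Gzmm and Gzmg, granzyme genes of low counts, differed in direction between the libraries, and that difference was not tested. Gzmm was at 35.9 against 14.8 CPM in the IL-15SA library, a ratio of 2.42 (1.53 to 3.69), and in the combination library at 12.4 against 16.1 CPM, a ratio of 0.773 (0.425 to 1.31). Gzmg had 1 UMI in IL-15SA members, a ratio of 0.0508 (0.00128 to 0.285), and 19 in combination members, a ratio of 1.69 (0.985 to 2.76). The death ligand gene Tnfsf10 was at 20.7 against 13.5 CPM (1.54-fold, 0.837 to 2.62) and at 38.1 against 16.9 CPM (2.25-fold, 1.60 to 3.11).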
